A study of Mus musculus with 8 samples.

Results

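Collagen genes were taken here as the gene symbols written Col, a type number, a and a chain number, with at least 80 sense reads summed over the 8 libraries. The files name 25229 symbols, of which 44 have that form, and 28 of the 44 reached the minimum. They comprised 7 of 9 fibrillar symbols (types I, II, III, V and XI), 5 of 6 basement membrane symbols (type IV) and 16 of 29 symbols of all other types. The members nearest the minimum were Col23a1 with 111 reads and Col9a3 with 129 reads. The nearest symbols left out were Col24a1 with 74 reads and Col10a1 with 63 reads. Among the 16 symbols left out, Col19a1 and Col26a1 had 0 reads in all libraries, and a count of 0 allows up to 3 reads in a library. The cartilage collagen genes Col2a1 and Col11a1 (1 and 4 reads in all) and the basement membrane gene Col4a6 (20 reads) also fell out. All 28 members passed the filter on low counts that left 14728 genes for testing.

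Collagens are matrix proteins in which 3 chains wind into a triple helix, and each chain is the product of its own gene. Fibrillar collagens form the interstitial fibres that stellate cells and portal fibroblasts lay down in fibrosis, type IV collagens form the sheet-like networks of basement membranes, and smaller types decorate fibrils, anchor membranes or span the cell surface. Hepatocytes make little interstitial collagen but are a known source of Col18a1, whose product carries heparan sulphate and yields the fragment endostatin.

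The libraries came from liver cells of 8 C57BL/6 mice. All were Ifih1-/-, lacking the double-stranded RNA sensor MDA5, and Alb-Cre+, with a recombinase under the albumin promoter that acts in hepatocytes. They were Adar1wt/wt (3 mice, called wt/wt), Adar1wt/flox (2 mice, wt/flox) or Adar1flox/flox (3 mice, flox/flox) at the locus of ADAR1, an enzyme that edits RNA, and the design asks what loss of ADAR1 changes when MDA5 is absent. The design text counts 2 flox/flox mice, but 3 samples carry the label and all were used. Replicates 1, 2 and 3 of a genotype were labelled 11, 9 and 7 weeks old. Livers were digested by collagenase perfusion, and low-speed pelleting, red cell lysis and a Percoll step enrich for hepatocytes, so other liver cells are present only as carry-over. Libraries were strand-specific and depleted of ribosomal RNA.

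The libraries held 75875711 to 132303735 sense gene reads, and no pair of replicates agreed within sampling noise (chi-square per degree of freedom 115.9 to 806.4). Adar itself stood at 28.1, 30.0 and 53.6 CPM (normalised counts, scaled for depth and composition) in wt/wt, 22.0 and 31.8 CPM in wt/flox, and 49.4, 35.9 and 42.05 CPM in flox/flox, listed by replicate number. It did not pass the test in flox/flox against wt/wt (log2 0.15, edgeR adjusted p = 0.693). These reads cover the whole gene, and no source used here gives the exons between the loxP sites, so the level does not check the deletion. Replicate 1 of flox/flox, labelled female, had 21255 reads of 4 Y-linked genes and 31 of Xist, and replicate 2 of flox/flox, labelled male, had 246646 reads of Xist and 0 of the Y-linked genes. Sex was therefore taken from these transcripts, which put wt/wt replicate 3 and flox/flox replicates 2 and 3 among the 3 libraries with Xist and the other 5 among those with Y-linked reads. Only the wt/wt tables lack a batch2 mark in their names, so genotype and that mark cannot be told apart in any comparison with wt/wt, whereas flox/flox and wt/flox share it. Reads in no gene made up 22.19% to 28.13% of wt/wt libraries, against 31.65% to 40.01% elsewhere, and the part of this split in the comparisons with wt/wt was not tested. The hepatocyte mRNA Alb stood at 63587 to 171680 CPM, and summed markers of liver endothelium were 330 to 517 CPM in wt/wt against 148 to 304 CPM in flox/flox.

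Col18a1 supplied most collagen mRNA in every library. On a scale corrected for exon length (RPKM), it averaged 225 and took 87.4% to 94.7% of the summed level of the 28 members. The next 5 genes by this measure were Col5a3 (6.50 RPKM), Col4a1 (2.71), Col15a1 (2.54), Col4a2 (2.43) and Col27a1 (1.57). The genes of the interstitial fibres ranked far lower, with 0.325 RPKM for Col3a1, 0.105 for Col1a2 and 0.0599 for Col1a1. Of the same summed level, the fibrillar class took 1.19% to 4.50% and the type IV class 1.64% to 4.55%.

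**Figure D1:**
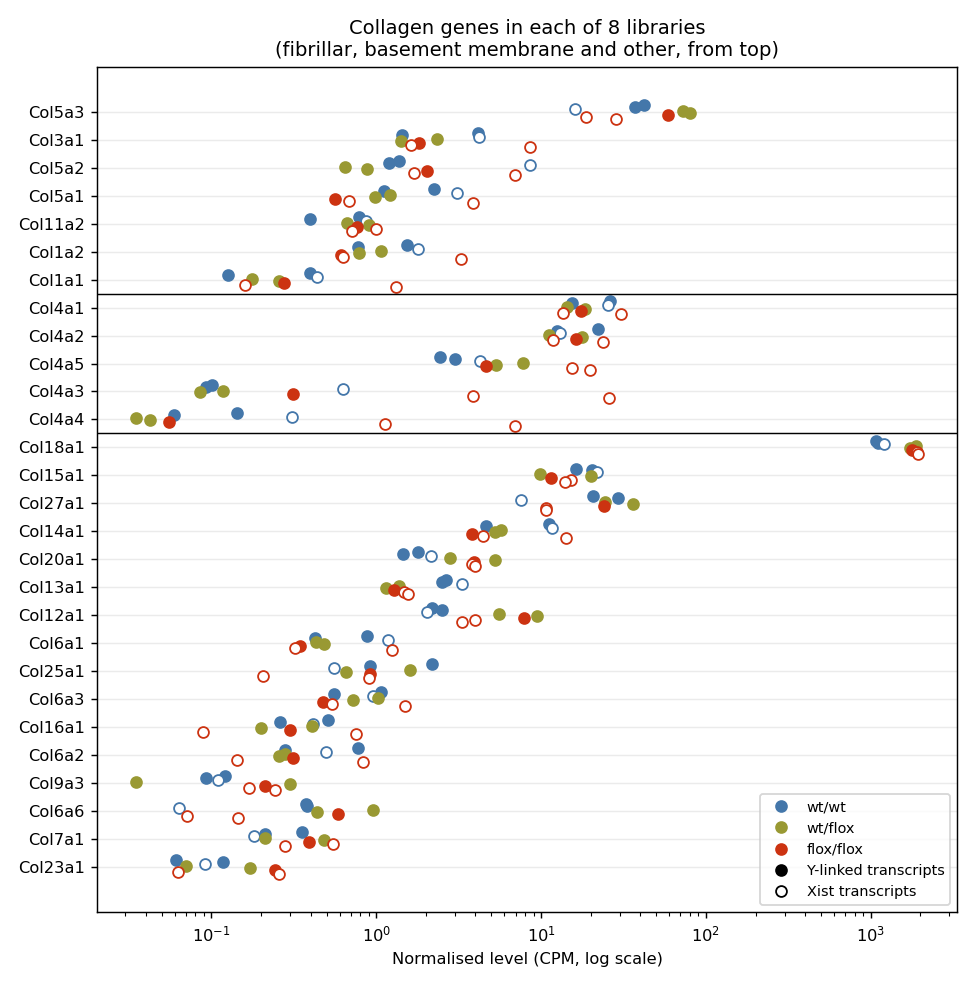
Normalised level (CPM, log scale) of the 28 collagen genes, with 1 point for each of the 8 libraries, coloured by genotype; open points are libraries with Xist and filled points those with Y-linked transcripts. Col18a1 lies between 1079.5 and 1944.9 CPM, above all other members, while Col4a3 spans 0.0852 to 25.9 CPM.

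In flox/flox against wt/wt, 6 collagen genes rose (Col18a1, Col4a3, Col4a5, Col5a3, Col12a1 and Col20a1) and 1 fell (Col13a1), at an adjusted p under 0.05 in edgeR's quasi-likelihood test. Those 7 are 25% of the members, against 29.1% of all genes tested, of which 14.5% were called higher and 14.6% lower. The share is near the background and is not a result about collagens as a group. The median log2 fold change was 0.17 over the members, 0.01 over all genes tested and 0.20 over the 2285 genes with exon lengths of 6605 to 10047 bases, the middle range of the members. In 5 members every value of flox/flox lay above every value of wt/wt, and in 2 every value lay below, beside 23.0% and 22.0% of all genes.

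In wt/flox against wt/wt, 5 members rose (Col18a1, Col4a5, Col5a3, Col12a1 and Col20a1) and Col13a1 fell, which is 21.4% of the members against 14.5% of all genes (7.58% higher and 6.9% lower). The members' median log2 fold change was -0.16, and that of all genes -0.05. In 6 members both wt/flox libraries lay above all wt/wt libraries, and in 3 both lay below, beside 25.8% and 29.3% of all genes. Both comparisons use the same wt/wt libraries, so the lists are not independent of each other. In flox/flox against wt/flox 0 members and 0.0% of all genes passed edgeR's test; 0 members and 525 genes (3.56%) had an unadjusted p under 0.05, and DESeq2 called 0 members and 16 genes. The libraries did not overlap in 5 members, 3 above and 2 below, beside 14.2% and 13.1% of all genes. This comparison lies within the shared batch2 mark and has 3 libraries against 2. Both wt/flox libraries have Y-linked reads and are labelled 11 and 9 weeks old. In flox/flox, replicates 2 and 3 have Xist, and replicate 3 is labelled 7 weeks old. The fit therefore takes its sex term from wt/wt and flox/flox, and the counts without overlap carry no sex adjustment. Those counts cannot be assigned to the second floxed allele, and no lack of a difference can be read from the calls.

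Scaling and single libraries bear on these counts. With library size alone as the scale, the median of all genes moved by -0.329 (log2) in flox/flox against wt/wt and by -0.351 in wt/flox against wt/wt, and the higher share of calls went from 50.0% to 14.2% and from 52.3% to 9.11%. The members called were then 1 higher and 2 lower in the first comparison and 1 higher and 1 lower in the second. Leaving out wt/wt replicate 1, wt/wt replicate 2, wt/flox replicate 1 or wt/flox replicate 2 left 0 genes called in wt/flox against wt/wt, members included. Without both flox/flox libraries whose transcripts contradict the labelled sex, the fit has a lone flox/flox library, assumed to vary like the others. Members called against wt/wt were then Col4a3 (log2 5.35, adjusted p = 0.0224), Col4a4 and Col4a5 (2.20, adjusted p = 0.0388), all higher. The calls of Col5a3 (log2 0.81, adjusted p = 0.0546), Col13a1 (-1.09, adjusted p = 0.0815), Col18a1 (0.68, adjusted p = 0.0878), Col20a1 (0.87, adjusted p = 0.242) and Col12a1 (0.69, adjusted p = 0.269) were lost. In wt/flox against wt/wt the same fit called 5 members higher and 1 lower. With a trend on exon length removed, the flox/flox calls of Col12a1 (log2 0.90, adjusted p = 0.0562), Col4a3 (3.15, adjusted p = 0.0639) and Col5a3 (0.40, adjusted p = 0.111) were lost, and in wt/flox against wt/wt only Col5a3 and Col13a1 were called (adjusted p of the other 4 from 0.0544 to 0.0761). None of the members called in a comparison of genotypes before these alternatives were applied changed the sign of its fold change there under the 20 run. Col4a4, called only in an alternative, kept its sign in 19 of 20 in flox/flox against wt/wt.

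**Figure D2:**
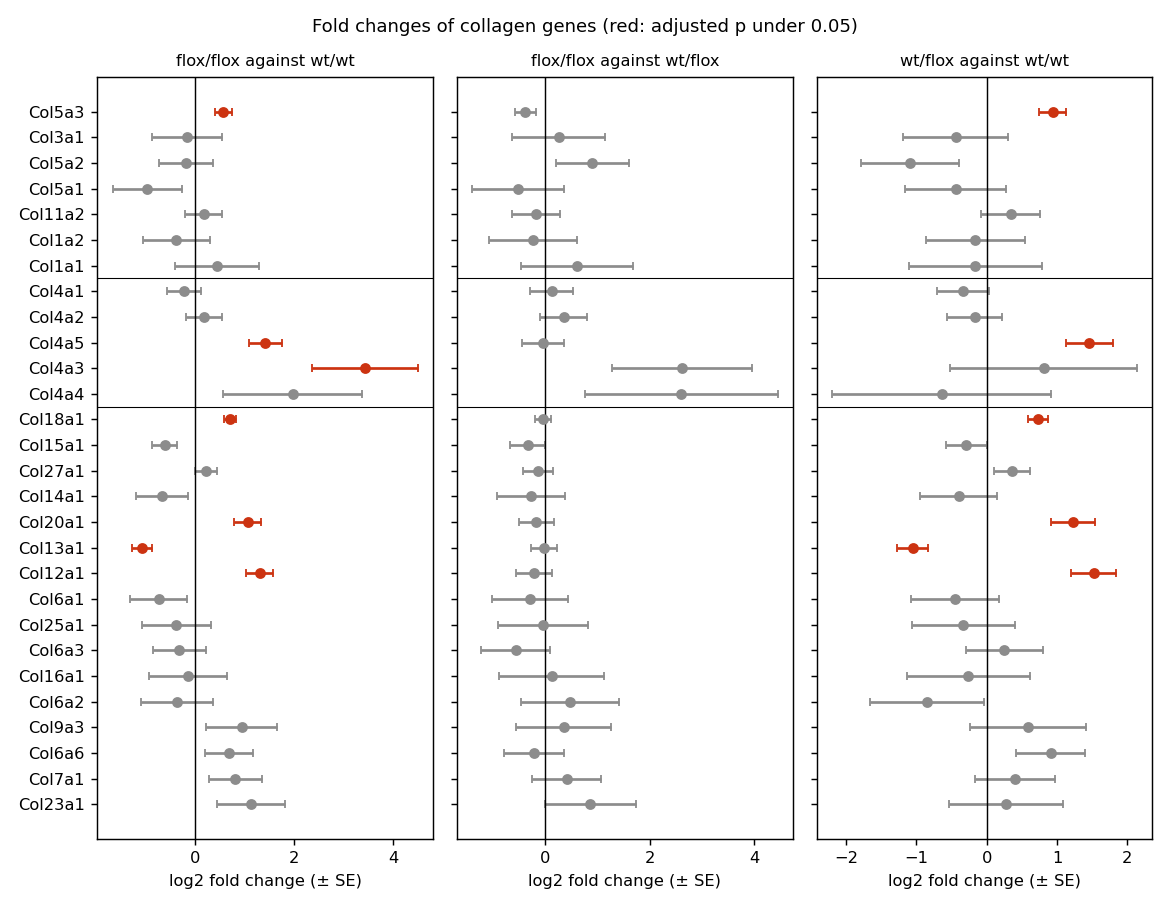
Log2 fold change with its standard error for each of the 28 collagen genes in the 3 comparisons of genotypes; red marks an adjusted p under 0.05. The left panel shows 7 red points, the middle panel 0 and the right panel 6.

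Col18a1 (chr10:77052178-77166548, minus strand), a collagen of basement membrane zones, was higher wherever a floxed allele was present. It stood at 1079.5, 1101.5 and 1201.7 CPM in wt/wt, 1893.7 and 1739.2 CPM in wt/flox, and 1780.5, 1913.3 and 1944.9 CPM in flox/flox, listed by replicate number. The wt/wt libraries were the lowest 3 without overlap, while wt/flox and flox/flox lay within the same range. The rise was 1.62-fold in flox/flox (log2 0.70, SE 0.12, edgeR adjusted p = 0.00813) and 1.66-fold in wt/flox (log2 0.73, SE 0.14, adjusted p = 0.0212). With library size alone the log2 fold changes were 0.37 and 0.38 (adjusted p = 0.0503 and 0.0701), with the median of all genes at -0.32 and -0.40. Without flox/flox replicate 1 the fold change against wt/wt was 0.68 on the log2 scale with an adjusted p of 0.0606.

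The sequence before the outermost Col18a1 start is shown because this gene carries most of the collagen mRNA. It is from RefSeq on GRCm38.p6, chr10:77166549-77166780, minus strand, 232 bases that hold no annotated exon, written 5′ to 3′. Capitals mark matches on either strand to the GC box GGGCGG (other strand CCGCCC), a binding motif of Sp-family factors, and to the CCAAT box (other strand ATTGG), which NF-Y binds.
Col18a1: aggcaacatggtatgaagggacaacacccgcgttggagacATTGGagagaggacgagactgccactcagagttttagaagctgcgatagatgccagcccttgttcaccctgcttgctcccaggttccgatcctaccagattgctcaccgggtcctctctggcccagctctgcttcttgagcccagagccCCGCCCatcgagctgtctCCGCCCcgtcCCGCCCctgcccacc
It holds 3 GC boxes and 1 CCAAT box. RefSeq also gives an inner Col18a1 start, and the 250 bases before that start hold 0 of either motif. The counts do not tell the starts apart. Which start the Col18a1 mRNA of these libraries came from is therefore not known, and these motifs cannot be tied to its level.

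Col15a1, the closest relative of Col18a1, did not follow it. Its levels were 16.3, 20.5 and 21.7 CPM in wt/wt, 9.89 and 20.01 CPM in wt/flox, and 11.5, 15.2 and 14.0 CPM in flox/flox. All flox/flox libraries lay below all wt/wt libraries, while the wt/flox pair spanned both ranges. The log2 difference of -0.62 (SE 0.26) between flox/flox and wt/wt had an adjusted p of 0.111 in edgeR. It was called in 4 of 20 alternatives.

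Type IV collagen showed its ubiquitous chains level and its specialised chains variable. Col4a1 and Col4a2, which form the network found in all basement membranes, did not pass the test in any comparison. Col4a1 stood at 26.1, 15.5 and 25.6 CPM in wt/wt, 14.3 and 18.4 CPM in wt/flox, and 17.5, 13.6 and 30.6 CPM in flox/flox. Col4a2 stood at 22.0, 12.5 and 13.1 CPM in wt/wt, 11.2 and 17.8 CPM in wt/flox, and 16.4, 11.9 and 23.7 CPM in flox/flox. Their genotypes overlapped fully, with flox/flox replicate 3 highest for both. The genes lie head to head on opposite strands of chromosome 8 with their starts 21 bases apart, and the ratio of Col4a1 to Col4a2 in RPKM stayed between 0.912 and 1.73 over the libraries.

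Col4a5 (chrX:141475385-141689234, plus strand), whose chain joins those of Col4a3 and Col4a4 in the kidney glomerular membrane, rose with the floxed allele. It stood at 2.43, 3.01 and 4.25 CPM in wt/wt, 7.80 and 5.31 CPM in wt/flox, and 4.65, 15.5 and 19.7 CPM in flox/flox. All 5 libraries with a floxed allele exceeded all wt/wt libraries, and the highest were the flox/flox libraries with Xist. The fit, which adjusts for sex, gave 2.67-fold in flox/flox (log2 1.42, SE 0.33, adjusted p = 0.0192) and 2.75-fold in wt/flox (log2 1.46, SE 0.33, adjusted p = 0.0312). Without wt/wt replicate 3, the only wt/wt library with Xist, the log2 value in flox/flox was 0.77 (adjusted p = 0.105). With labelled sex in the fit the wt/flox value was 1.08 (adjusted p = 0.270).

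Col4a3 (chr1:82586921-82722059, plus strand) and its neighbour Col4a4 (chr1:82448423-82586849, minus strand) were under 1 CPM in 6 libraries and high in flox/flox replicates 2 and 3. Col4a3 stood at 0.101, 0.093 and 0.630 CPM in wt/wt, 0.117 and 0.0852 CPM in wt/flox, and 0.311, 3.85 and 25.9 CPM in flox/flox. Col4a4 stood at 0.142, 0.0592 and 0.310 CPM in wt/wt, 0.0351 and 0.0426 CPM in wt/flox, and 0.0555, 1.13 and 6.97 CPM in flox/flox. For both genes wt/wt replicate 3 was the highest library outside flox/flox, so the 3 libraries with Xist lay above the 5 others. The fitted rise of Col4a3 was 10.8-fold in flox/flox against wt/wt (log2 3.43, SE 1.07, adjusted p = 0.0483), and the groups overlapped. That call was lost without any single one of the wt/wt or wt/flox libraries, with adjusted p = 0.0647, 0.0801 and 0.374 without wt/wt replicates 1, 2 and 3 and 0.0777 and 0.0781 without wt/flox replicates 1 and 2. The log2 value without wt/wt replicate 3 was 1.67. Col4a4 did not pass (log2 1.97, SE 1.40, adjusted p = 0.316).

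The Col4a3 and Col4a4 starts lie 72 bases apart and point away from each other, and the stretch between them is shown because the levels of both genes followed the same libraries. It is from RefSeq on GRCm38.p6, chr1:82586850-82586920, read on the strand of Col4a4, 71 bases with no annotated exon. The window before Col4a5 is given for comparison, chrX:141475169-141475384, plus strand, 216 bases, with capitals as above.
Col4a4 and Col4a3: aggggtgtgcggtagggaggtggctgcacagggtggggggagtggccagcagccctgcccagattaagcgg
Col4a5: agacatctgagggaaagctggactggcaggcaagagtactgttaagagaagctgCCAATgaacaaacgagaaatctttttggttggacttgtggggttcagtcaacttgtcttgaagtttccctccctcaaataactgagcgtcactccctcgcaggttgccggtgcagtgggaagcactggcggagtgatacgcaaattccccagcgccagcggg
The shared stretch is 69.0% G and C over its 71 bases and holds 0 GC boxes and 0 CCAAT boxes. The full 250 bases before the Col4a4 start are 62.8% G and C, against a median of 52.4% in all windows of that length. They also hold 0 of either motif. The Col4a5 stretch is 52.3% G and C and holds 1 CCAAT box. The RPKM ratio of Col4a3 to Col4a4 ran from 0.761 in wt/wt replicate 1 to 5.96 in flox/flox replicate 1, so the pair did not keep a fixed ratio at these low counts (3977 and 1112 sense reads in all).

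**Figure D3:**
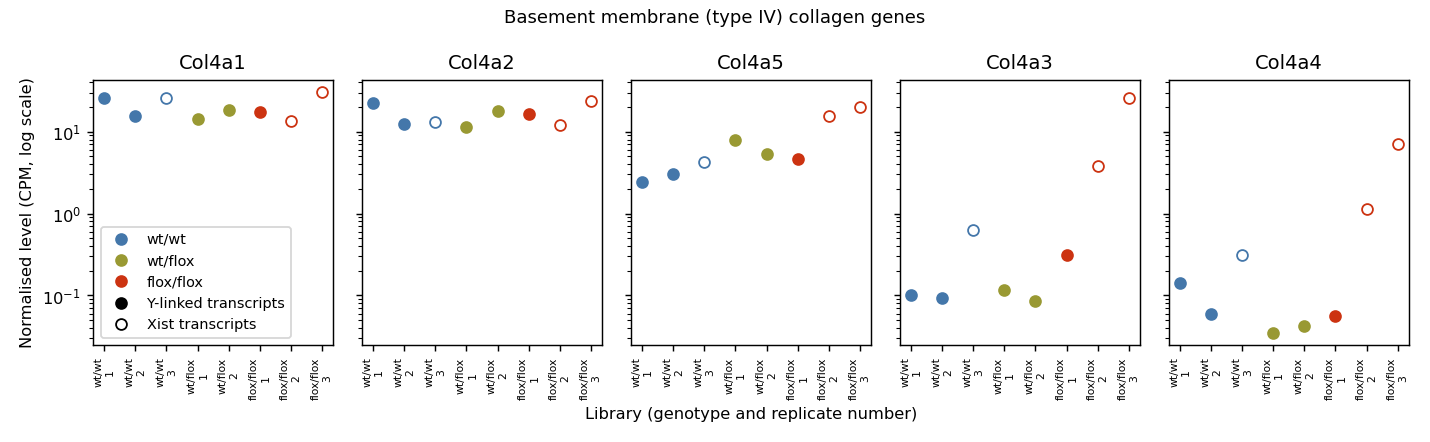
Level (CPM, log scale) of the 5 type IV collagen genes in each library, coloured by genotype and open where Xist was present. Col4a1 and Col4a2 stay within 11.2 to 30.6 CPM, while Col4a3 and Col4a4 are highest in flox/flox replicates 2 and 3 and next highest in wt/wt replicate 3.

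Among fibrillar collagens, Col5a3, which encodes a minor chain of the type V heterotrimers that seed fibrils, was the most abundant and the only member of the class called in edgeR's test in any comparison. It stood at 42.0, 37.3 and 16.0 CPM in wt/wt, 72.6 and 80.2 CPM in wt/flox, and 58.9, 18.8 and 28.3 CPM in flox/flox. The libraries with Xist (wt/wt replicate 3 and flox/flox replicates 2 and 3) were the lowest 3, and wt/flox, with Y-linked reads in both libraries, was highest. After adjustment for sex the fold change was 1.92 in wt/flox (log2 0.94, SE 0.19, adjusted p = 0.0243) and 1.48 in flox/flox (log2 0.57, SE 0.17, adjusted p = 0.0433). The flox/flox call depended on the sex term: the log2 value was 0.19 with labelled sex (adjusted p = 0.851) and 0.15 with none (adjusted p = 0.822), and the call held in 5 of 20 alternatives. It was lost without any single library except flox/flox replicate 2, with adjusted p up to 0.175. The wt/flox call was also lost with labelled sex (log2 1.26, edgeR adjusted p = 0.179) and with no sex term (log2 1.27, adjusted p = 0.134). That call held in 11 of 20 alternatives.

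The 250 bases before the Col5a3 start are shown because this was the leading fibrillar gene (RefSeq, GRCm38.p6, chr9:20815068-20815317, minus strand, capitals as above).
Col5a3: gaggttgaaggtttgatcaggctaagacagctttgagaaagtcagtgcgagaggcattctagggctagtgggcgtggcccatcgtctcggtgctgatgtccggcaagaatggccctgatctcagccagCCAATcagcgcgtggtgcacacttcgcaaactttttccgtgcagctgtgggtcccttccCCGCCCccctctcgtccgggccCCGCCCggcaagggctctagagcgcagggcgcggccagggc
It holds 2 GC boxes and 1 CCAAT box. Over the family, 22 of the 28 members have a promoter window in RefSeq; 14 of these genes have a GC box and 9 a CCAAT box within 250 bases of a start. In all 32851 windows, of the same length, the shares were 32.7% and 33.8%. The palindrome TTCNNNGAA, a STAT-type site, was in 0 collagen windows and in 7.0% of all windows, and TATAAA was in those of Col3a1, Col11a2 and Col13a1 and in 12.4% of all.

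Setting the 3 libraries with Xist against the 5 with Y-linked transcripts, in the same fit, was a comparison chosen after seeing the data and does not follow the sex labels. Both libraries labelled 7 weeks old, wt/wt replicate 3 and flox/flox replicate 3, are among those with Xist. Sex and the youngest age therefore cannot be fully told apart in it. Col5a3 was lower by -1.31 (log2, SE 0.17, edgeR adjusted p = 0.0171) and Col27a1 by -1.45 (SE 0.24, adjusted p = 0.0443) in the libraries with Xist. Those 2 calls are 7.14% of the members, against 0.978% of all genes (0.543% higher and 0.435% lower). In 2 members the libraries with Xist all lay above the others and in 3 all below, beside 3.8% and 3.59% of all genes. Col27a1, a long relative of the fibrillar chains, stood at 20.6, 29.5 and 7.52 CPM in wt/wt, 24.3 and 36.3 CPM in wt/flox, and 24.0, 10.8 and 10.7 CPM in flox/flox. Its 3 libraries with Xist lay below the other 5 without overlap. Col27a1 lost its call without any single library (adjusted p 0.0521 to 0.119), and Col5a3 without wt/wt replicate 1, wt/wt replicate 3 or flox/flox replicate 1 (adjusted p = 0.0588, 0.0547 and 0.122). With labelled sex the log2 values were -0.05 for Col5a3 and -0.52 for Col27a1, and no member was called. Without both libraries of contradicted sex the log2 values were -1.30 for Col5a3 (adjusted p = 0.0212) and -1.72 for Col27a1 (adjusted p = 0.0653), and Col4a3 and Col5a2 were called higher. DESeq2 added 5 members to the 2: Col4a3, Col4a4, Col4a5 and Col5a2 were higher and Col6a6 lower in the libraries with Xist. Whether the fold change of flox/flox against wt/wt differed between these kinds of library was also fitted. That fit rests on the only wt/wt library with Xist, replicate 3, and the only flox/flox library with Y-linked reads, replicate 1. It therefore cannot decide the question, and no lack of a difference can be read from it. The fitted differences were 1.28 (log2, SE 0.43) for Col4a5 and 4.52 (SE 1.77) for Col4a4, the members with the smallest p.

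**Figure D4:**
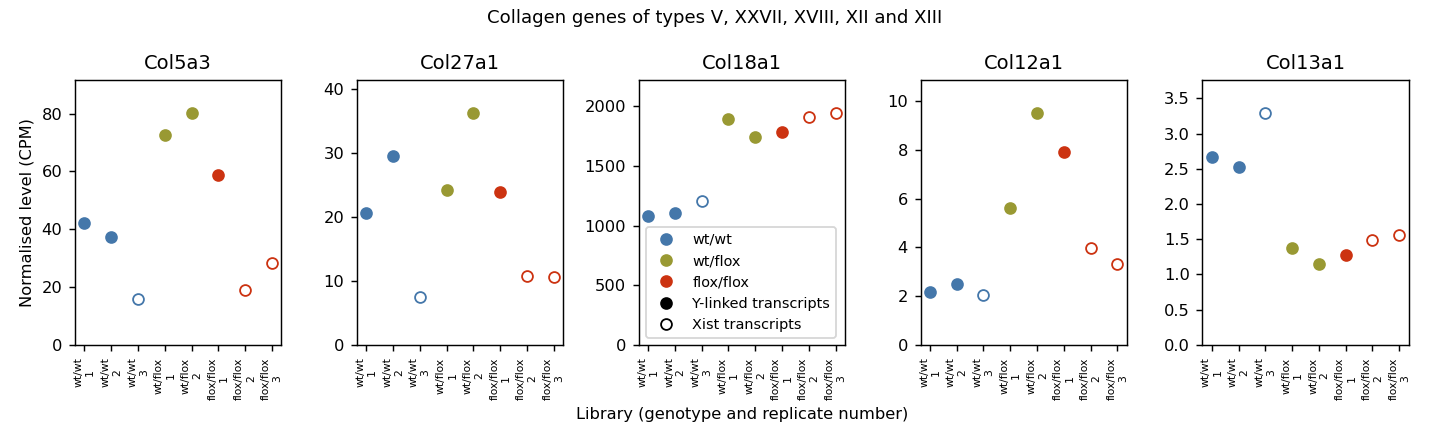
Level (CPM, linear axes from 0) of Col5a3, Col27a1, Col18a1, Col12a1 and Col13a1 in each library, coloured by genotype and open where Xist was present. Col5a3 and Col27a1 are lowest in the 3 libraries with Xist, whereas Col18a1 and Col13a1 separate the 3 wt/wt libraries from the other 5.

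The chains of interstitial fibres were scarce and varied between libraries of the same genotype. Col1a1, whose chains make up most of type I fibres, stood at 0.396, 0.127 and 0.438 CPM in wt/wt, 0.175 and 0.256 CPM in wt/flox, and 0.278, 0.161 and 1.31 CPM in flox/flox. Col1a2, the other type I chain, stood at 1.53, 0.778 and 1.80 CPM in wt/wt, 1.08 and 0.781 CPM in wt/flox, and 0.611, 0.626 and 3.26 CPM in flox/flox. Col3a1, the chain of type III fibrils, stood at 4.17, 1.44 and 4.22 CPM in wt/wt, 2.34 and 1.42 CPM in wt/flox, and 1.81, 1.63 and 8.54 CPM in flox/flox. In all of these flox/flox replicate 3 was highest, wt/wt replicates 1 and 3 came next, and the genotypes overlapped.

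The type V chains other than Col5a3 were also high in flox/flox replicate 3. Col5a1, which nucleates collagen fibrils, stood at 2.24, 1.12 and 3.08 CPM in wt/wt, 1.22 and 0.980 CPM in wt/flox, and 0.566, 0.688 and 3.89 CPM in flox/flox. Col5a2 stood at 1.37, 1.20 and 8.52 CPM in wt/wt, 0.643 and 0.881 CPM in wt/flox, and 2.02, 1.71 and 6.91 CPM in flox/flox. Its highest libraries were wt/wt replicate 3 and flox/flox replicate 3, labelled the youngest. Col11a2, a chain of type XI collagen, stood at 0.792, 0.397 and 0.867 CPM in wt/wt, 0.667 and 0.909 CPM in wt/flox, and 0.766, 0.992 and 0.713 CPM in flox/flox, a narrow range with full overlap.

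No Col1, Col3 or Col11 member, and neither Col5a1 nor Col5a2, passed the test in a comparison of genotypes in edgeR. Their log2 values in flox/flox against wt/wt ran from -0.97 (SE 0.70) for Col5a1 to 0.44 (SE 0.84) for Col1a1, each smaller than 2 standard errors. Without flox/flox replicate 3, which was highest for Col5a1, that gene was called lower (log2 -1.82, adjusted p = 0.0241). Col14a1, a fibril-associated collagen abundant in liver mesenchyme, stood at 11.1, 4.63 and 11.6 CPM in wt/wt, 5.73 and 5.28 CPM in wt/flox, and 3.82, 4.45 and 14.2 CPM in flox/flox. It shared the high libraries of the interstitial chains and was not called (log2 -0.67, SE 0.52, adjusted p = 0.359).

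Type VI collagen forms beaded filaments around cells. Col6a1 stood at 0.883, 0.423 and 1.18 CPM in wt/wt, 0.433 and 0.483 CPM in wt/flox, and 0.344, 0.322 and 1.24 CPM in flox/flox. Col6a2 stood at 0.771, 0.279 and 0.493 CPM in wt/wt, 0.281 and 0.256 CPM in wt/flox, and 0.311, 0.143 and 0.827 CPM in flox/flox. Col6a3 stood at 1.07, 0.558 and 0.958 CPM in wt/wt, 1.03 and 0.724 CPM in wt/flox, and 0.477, 0.536 and 1.502 CPM in flox/flox. Each was highest in flox/flox replicate 3, the genotypes overlapped, and 0 of 3 were called.

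Markers of stellate cells moved with these genes. Their summed level, over 14 markers of which none was at 0 in all libraries, was 71.8, 35.0 and 71.1 CPM in wt/wt, 44.2 and 32.3 CPM in wt/flox, and 41.1, 44.0 and 82.3 CPM in flox/flox. It was thus high in wt/wt replicates 1 and 3 and in flox/flox replicate 3, the libraries that were high for Col1a2, Col3a1, Col5a1, Col6a1 and Col14a1. Summed markers of smooth muscle and vascular mural cells (9 genes, 1 at 0 in all libraries) were highest in the same libraries, at 13.3, 12.1 and 11.5 CPM against 4.37 to 7.57 CPM in the other 5. Reln supplied much of the stellate sum, at 12.9 to 43.3 CPM. The defining stellate marker Lrat ran from 1.20 CPM in flox/flox replicate 1 to 6.73 CPM in wt/wt replicate 1. In bulk RNA, fewer cells of a type and less RNA per cell cannot be told apart. The 12 markers of activated myofibroblasts, of which 7 were tested, summed to 8.26, 7.85 and 13.9 CPM in wt/wt, 4.71 and 17.9 CPM in wt/flox, and 26.0, 10.7 and 34.4 CPM in flox/flox, highest in flox/flox replicate 3. The sum does not give the direction of most of these markers. In flox/flox against wt/wt, 6 of the 7 tested had a negative log2 value and 1 a positive one (median -0.75, highest 1.71). Among the 12 markers, Acta2 had 25 reads and Timp1 6 reads over all libraries, and Acta2 was at 0 in both wt/flox libraries. The part of these cell types in the levels of these collagens was not tested. In all, 16 of the 28 members, among them all 5 of type IV, were highest in flox/flox replicate 3. The share of all genes highest in that library was not computed, so this count is not a result about collagens as a group.

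**Figure D5:**
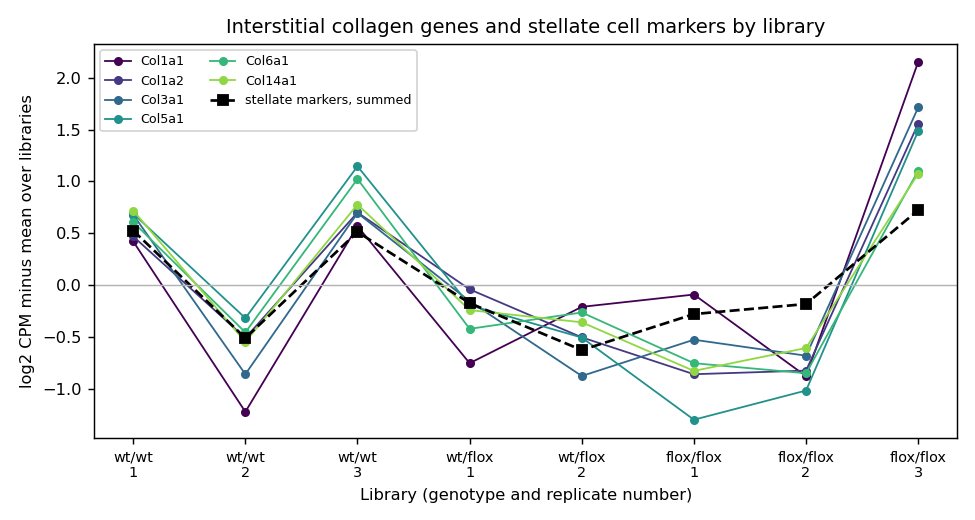
Log2 level of 6 interstitial collagen genes and of 14 summed stellate cell markers in each library, as the difference from the mean of each line over the 8 libraries. All lines lie above their mean in wt/wt replicates 1 and 3 and in flox/flox replicate 3.

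Fibril-associated and membrane-bound collagens gave the remaining calls. Col12a1 (chr9:79598991-79718831), whose product links fibrils under load, stood at 2.18, 2.50 and 2.04 CPM in wt/wt, 5.59 and 9.52 CPM in wt/flox, and 7.89, 3.99 and 3.33 CPM in flox/flox. All 5 libraries with a floxed allele exceeded wt/wt, and those with Y-linked reads were the highest. The rise was 2.46-fold in flox/flox (log2 1.30, SE 0.28, adjusted p = 0.0145) and 2.86-fold in wt/flox (log2 1.52, SE 0.32, adjusted p = 0.0269). The flox/flox call was lost with labelled sex (log2 1.11, adjusted p = 0.0852), without wt/wt replicate 2 (adjusted p = 0.0502) and without flox/flox replicate 1 (log2 0.83, adjusted p = 0.155), and both calls were lost with the trend on exon length removed; at 15228 bases its exons are the longest of the members.

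Col20a1 (chr2:180986535-181018363), another fibril-associated collagen, stood at 1.80, 1.45 and 2.16 CPM in wt/wt, 2.80 and 5.24 CPM in wt/flox, and 3.91, 3.83 and 3.99 CPM in flox/flox. The flox/flox libraries were nearly equal and lay above all of wt/wt. The rise was 2.08-fold in flox/flox (log2 1.06, SE 0.27, adjusted p = 0.0257) and 2.35-fold in wt/flox (log2 1.23, SE 0.31, adjusted p = 0.0396). The flox/flox call was lost without any of wt/wt replicates 1, 2 and 3 or flox/flox replicate 1 (edgeR adjusted p = 0.0558, 0.0757, 0.0581 and 0.185). The wt/flox call was lost without wt/wt replicate 1 or 2 (adjusted p = 0.108 and 0.156) or wt/flox replicate 1 or 2 (0.0776 and 0.216). It was also lost without flox/flox replicate 2 or 3 (adjusted p = 0.0535 and 0.0572).

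Col13a1 (chr10:61838236-61979108), a transmembrane collagen of cell adhesion sites, was the only member that fell. It stood at 2.67, 2.52 and 3.30 CPM in wt/wt, 1.38 and 1.15 CPM in wt/flox, and 1.28, 1.48 and 1.56 CPM in flox/flox. The 5 libraries with a floxed allele lay below wt/wt without overlap and close together. The log2 fold change was -1.07 in flox/flox (SE 0.20, adjusted p = 0.00883) and -1.05 in wt/flox (SE 0.22, adjusted p = 0.0275), or 2.10-fold and 2.07-fold lower. The flox/flox call was lost without wt/wt replicate 3 (log2 -1.02, adjusted p = 0.0640) and held in 18 of 20 alternatives. Liver endothelial markers also fell, with 17 of 20 called lower (85.0%, beside 14.6% of all genes) and 0 higher in flox/flox against wt/wt. Their part in the level of Col13a1 was not tested.

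The other members were low. Col16a1, Col9a3, Col6a6, Col7a1, Col23a1 and Col25a1 ranged from 0.0351 to 2.19 CPM over the libraries, and 0 of these 6 were called for genotype. The transmembrane gene Col25a1 stood at 2.19, 0.913 and 0.557 CPM in wt/wt, 1.61 and 0.653 CPM in wt/flox, and 0.922, 0.206 and 0.911 CPM in flox/flox. Its genotypes overlapped, with a wide spread within each. Col6a6, a type VI chain, was lowest in the 3 libraries with Xist, at 0.0639 to 0.144 CPM against 0.376 to 0.959 CPM in the other 5 (log2 -2.48, SE 0.49, adjusted p = 0.0838). Those levels rest on 282 sense reads in all libraries together. Col7a1, the anchoring fibril gene, ran from 0.183 to 0.545 CPM with overlap between genotypes.

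Genes that make, trim, bind and remove collagen were read from lists chosen beside the members. Of 23 genes of collagen synthesis and export, 5 rose and 1 fell in flox/flox against wt/wt, together 26.1%, beside the 29.1% of all genes. The risers included Mia3 and Mia2, whose products TANGO1 and cTAGE5 load bulky procollagen at endoplasmic reticulum exits: Mia3 averaged 188 ± 20.8 CPM (SD, n = 3) in wt/wt and 349 ± 3.85 CPM (n = 3) in flox/flox (log2 0.85, SE 0.12, adjusted p = 0.00418), and Mia2 283 ± 10.0 and 448 ± 28.2 CPM (log2 0.68, SE 0.12, adjusted p = 0.00787). Colgalt1, which adds galactose to collagen hydroxylysine, rose by 0.38 (log2, SE 0.10, adjusted p = 0.0272). Serpinh1, the collagen chaperone HSP47 of matrix-producing cells, fell by 1.42 on the log2 scale (SE 0.36, adjusted p = 0.025), from 2.26 ± 0.577 to 1.12 ± 0.593 CPM. Export factors present at high levels and the low-level chaperone thus changed in opposite directions.

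The other lists are read against the same background of 29.1% called (14.5% higher and 14.6% lower). Of 12 genes of trimming and crosslinking, 1 rose and 0 fell (8.33%): Bmp1, the procollagen C-proteinase, went from 131 ± 19.8 CPM (SD, n = 3) to 219 ± 24.3 CPM (n = 3; log2 0.66, SE 0.12, adjusted p = 0.00911). Of 14 degradation genes 3 rose, the protease genes Ctsb (log2 0.64), Mmp15 (0.68) and Plg (0.48), and the inhibitor gene Timp3 fell (log2 -0.95, SE 0.15, adjusted p = 0.00539), together 28.6%. Of 8 collagen receptor genes 3 rose and 0 fell (37.5%). Itga1, the α1 integrin chain that binds type IV collagen, averaged 24.6 ± 3.43 CPM in wt/wt and 51.0 ± 12.2 CPM in flox/flox (log2 0.88, SE 0.12, adjusted p = 0.00461), and its partner chain Itgb1 155.6 ± 4.48 and 257 ± 18.4 CPM (log2 0.74, SE 0.12, adjusted p = 0.00587). Itga10 rose by 1.33 (log2, SE 0.40, adjusted p = 0.0425) from a mean of 1.24 CPM.

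Of 20 partners of collagen in basement membranes 5 rose and 1 fell, again near the share of all genes. The laminin chain gene Lamc1 went from 14.1 ± 1.43 CPM to 26.8 ± 1.76 CPM (SD, n = 3 each; log2 0.87, SE 0.11, adjusted p = 0.00375), and Agrn, the heparan sulphate proteoglycan agrin, from 38.3 ± 8.67 to 81.6 ± 4.87 CPM (log2 1.05, SE 0.17, adjusted p = 0.00644). Smoc1, a calcium-binding matrix gene, rose by 0.90 (log2, SE 0.14, adjusted p = 0.00522), while Pxdn, the peroxidase that crosslinks type IV collagen, fell by 1.27 (SE 0.32, adjusted p = 0.0233). Of 14 collagen-binding matrix genes 2 rose, the hepatocyte products Fn1 (log2 0.96, SE 0.15, adjusted p = 0.00528) and Vtn (0.49, SE 0.14, adjusted p = 0.0377), and 2 fell, the mesenchymal genes Bgn (log2 -1.40, SE 0.41, adjusted p = 0.0407) and Emilin1 (-1.28, SE 0.31, adjusted p = 0.0207), together 28.6%. Of 23 genes of TGF-beta signalling, the pathway that drives fibrillar collagen in stellate cells, 2 rose and 2 fell (17.4%): the receptor Tgfbr1 (log2 0.92) and Smad2 (0.41) rose, and the ligand Tgfb1 (-1.69) and its binding protein Ltbp4 (-1.30) fell. None of the 7 lists held a gene called by edgeR in flox/flox against wt/flox, as for all genes.

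Markers of the cell types that could carry collagen mRNA were counted in the same way, beside 14.5% of all genes called higher and 14.6% lower. Of tested genes, 3 of 14 stellate cell markers fell in flox/flox against wt/wt (Vipr1, Ecm1 and Des), 2 of 15 Kupffer cell markers fell (Cd163 and C1qc), and 1 of 7 portal fibroblast markers rose (Entpd2) and 1 fell (Thy1). Of smooth muscle and vascular mural markers 1 of 7 fell (Des, which is also on the stellate list), and 0 of 7 activated myofibroblast and 0 of 1 mesothelial markers were called. Called or not, log2 values were negative in 13 of 14 stellate, 15 of 15 Kupffer cell and 7 of 7 mural markers (medians -1.08, -1.12 and -1.03). The same held for 20 of 20 endothelial (median -1.19), 5 of 7 portal fibroblast and 6 of 7 activated myofibroblast markers. Over all genes, 7290 of 14728 log2 values were negative. Of 9 cholangiocyte markers 3 rose (Atp1b1, Cdh1 and Pkhd1) and 0 fell, with 5 positive and 4 negative log2 values. The 12 markers of that list summed to 210 to 259 CPM in wt/wt, 375 and 394 CPM in wt/flox and 391 to 492 CPM in flox/flox. Cdh1 and Atp1b1 supplied most of that sum, so it mainly follows those genes. Cdh1 stood at 110 to 140 CPM in wt/wt and 183 to 242 CPM in flox/flox, and Atp1b1 at 56.0 to 60.2 and 99.1 to 234 CPM. Krt19 stayed between 0 and 0.186 CPM, and Sox9 stood at 15.0, 21.9 and 8.29 CPM in wt/wt, 4.04 and 10.5 CPM in wt/flox, and 6.91, 3.77 and 5.17 CPM in flox/flox. Of 10 hepatocyte markers 2 rose, with Apob at 10655 ± 312 CPM in wt/wt and 28203 ± 4919 CPM in flox/flox (SD, n = 3 each). Summed Kupffer cell markers ran from 74.9 to 315 CPM in wt/wt and from 41.6 to 142 CPM in flox/flox, highest in replicate 3 of each. The part of these cell types in the collagen levels was not tested.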

How the data were processed

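The deposited tables give, per the file headers, raw counts of sense and antisense reads per gene symbol, made by the authors, with 1 library in each table. The submitters' processing notes name GRCm38 (mm10) and DESeq2. How reads were aligned and counted, and on which gene annotation, is not given in the sources used here. The 5 rows that name no gene were left out: in wt/wt and elsewhere, reads in no gene were 22.19% to 28.13% and 31.65% to 40.01%, ambiguous reads 0.511% to 0.668% and 0.317% to 0.419%, and alignments to several places 8.97% to 10.91% and 3.92% to 4.98%.

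edgeR 4.0.16 under R 4.3.3 tested sense counts with its two-sided quasi-likelihood F test, TMM factors (1.138 to 1.188 in wt/wt, 0.855 to 0.996 elsewhere) and filterByExpr. All 8 libraries entered 1 fit of genotype and sex by transcripts (Xist against Ddx3y, Eif2s3y, Kdm5d and Uty), and p-values were adjusted by Benjamini-Hochberg over 14728 genes at 0.05. P-values measure the spread between these libraries, which the labels give as separate samples without naming animals. The first 2 principal components held 39.7% and 27.3% of the variance, the first separating libraries with Xist from the rest. CPM are TMM-scaled here, and RPKM use GENCODE M21 exon lengths, matched for 96.6% of symbols. The scripts were tested on simulated data. Promoters are RefSeq windows on GRCm38.p6, with motifs searched on both strands.

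Values by library are given for fibrillar and type IV members, other members called, and the 6 other members of highest mean CPM; each list gives counts and up to 3 called genes in a direction. The members, lists and tests were chosen with earlier results of these data known. Alternatives were labelled sex or no sex term, RLE factors, no filter, DESeq2 1.42.0, a replicate block, a fit of the 2 groups alone, single libraries left out, both libraries of contradicted sex left out, an exon length trend removed and antisense reads added. Library size alone and the comparison by sex transcripts were added after seeing the data.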

Additional observations from a re-analysis of the deposited data

Results flagged for a closer look

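Antisense reads entered the fits only in the alternative that added them to sense reads. They exceeded the wt/wt level in all flox/flox libraries at 3 collagen genes. All flox/flox libraries lay below all wt/wt libraries at Col13a1, at 0.167 to 0.206 CPM against 0.345 to 0.475 CPM. The same held for Col15a1, at 0.788 to 1.224 CPM against 1.634 to 2.173 CPM. The share of all genes whose antisense reads did not overlap was not computed, so this is not a result about collagens as a group. At Col18a1 antisense reads came to 111, 117 and 124 CPM in wt/wt and to 156 and 160.4 CPM in wt/flox. In flox/flox they came to 174, 192 and 181 CPM, a mean of 182 CPM. Col18a1 antisense reads were 9.65 for every 100 sense reads, and both strands were higher with a floxed allele. That ratio was not particular to Col18a1, with 9.93 at Col5a3, 9.01 at Col15a1 and 10.8 at Col4a1. Over all genes, wt/wt replicate 1 held 6410195 antisense and 82967317 sense reads, and flox/flox replicate 3 held 10864408 and 132303735.

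At Col4a3 the wt/wt libraries had 66, 108 and 125 antisense reads, the wt/flox libraries 160 and 150, and the flox/flox libraries 220, 334 and 538, with a flox/flox mean of 3.17 CPM. In wt/wt replicate 1 antisense reads were 0.670 CPM, against 0.101 CPM on the sense strand. They outnumbered sense reads in every wt/wt and wt/flox library and in flox/flox replicate 1 (220 against 28 reads). Only in flox/flox replicates 2 and 3 were sense reads more numerous, at 431 and 3412. Antisense reads of Col4a3 were higher in both wt/flox libraries than in any wt/wt library, whereas its sense reads were not. At Col20a1 the flox/flox mean was 0.296 CPM from 27, 32 and 40 reads, against 10, 25 and 24 reads in wt/wt. None of these differences was tested, and whether the antisense reads come from separate transcripts was not tested either.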

How the results depend on the processing

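The counts of called collagen genes depended on the processing, while signs did not: of the 15 calls of single members (7 and 6 for genotype, 2 by sex transcripts), 0 reversed. In flox/flox against wt/wt (6 higher, 1 lower), the counts were 1 and 2 with library size alone, 4 and 2 with only those groups in the fit, 3 and 0 without both libraries of contradicted sex, and 3 higher with the exon length trend removed. Leaving out single libraries gave 2 to 6 higher and 0 to 2 lower. In wt/flox against wt/wt (5 higher, 1 lower), the higher count was 2 with labelled sex, 3 with no sex term, 1 with library size alone and 1 with the exon length trend removed, and single libraries left out gave 0 to 5 higher and 0 to 1 lower. RLE factors, no filter and DESeq2 kept the members' counts of both. In flox/flox against wt/flox all 20 alternatives gave 0 and 0. By sex transcripts (0 higher, 2 lower), labelled sex and library size alone gave 0 lower, DESeq2 4 higher, the libraries of contradicted sex left out 2 higher and 1 lower, antisense reads added 1 lower, and single libraries left out 0 to 1 higher and 0 to 1 lower.

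Libraries with the same replicate number share the labelled age but no stated animal, and their deviations correlated at 0.012 to 0.451, so the number was not taken as a pairing. With the replicate block and the sex term, flox/flox against wt/wt gave 1 higher and 1 lower (Col5a3 and Col13a1; Col18a1, Col12a1, Col20a1, Col4a3 and Col4a5 had adjusted p from 0.0519 to 0.0712), wt/flox against wt/wt gave 0 and 0 (adjusted p 0.0657 to 0.103 for the 6 members), and the comparison by sex transcripts gave 0 lower. With the block and no sex term the genotype comparisons gave 4 higher and 1 lower (without Col12a1 and Col5a3), and 0 higher and 1 lower (Col13a1). Genes called over the whole table went from 4282 to 1786 with block and sex term and to 1054 without the libraries of contradicted sex in flox/flox against wt/wt, and from 2132 to 0 and 2699 in wt/flox against wt/wt. Members under 300 reads in all (Col7a1, Col6a6, Col9a3 and Col23a1) are limited by depth, and no lack of a difference can be read from them.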
